A study of Mus musculus with 8 samples.

Results

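The RNAs described here are 9 genes chosen by name: Meg3, Rian, Mirg, Miat, Malat1, Neat1, Snhg11, Snhg14 and A230001M10Rik, out of 55341 gene symbols in each count file. All 9 were found. They were picked with earlier results of these libraries in view: 8 of them as abundant nuclear long non-coding RNAs (lncRNAs), and A230001M10Rik, an lncRNA gene known by its clone name, whose choice is treated here as resting on its difference between the groups. As counted here, Neat1 did not bear out the label "abundant": it had only 97 to 220 counts per library and ranked 523rd of 5586 lncRNA genes with at least 1 count.

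The study measured nuclear RNA of cortical GABAergic (inhibitory) neurons in 8 juvenile mice, 1 library per mouse. The PTU group (mice 9 to 12) was hypothyroid from propylthiouracil, an inhibitor of thyroid hormone synthesis, given to the gestating females. The PTU+TH group (mice 13 to 16) had the same treatment and one intraperitoneal dose of thyroid hormone 24 h before the brain was collected. All mice carried a reporter for a nuclear fluorescent protein, limited to GABAergic neurons by Cre and loxP, and nuclei were sorted by it. Both groups thus shared the PTU treatment, and neither euthyroid animals nor the Cre driver are described in the sources used here. Age, sex, litter and hormone dose are likewise not given there.

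Many long non-coding RNAs are transcribed and spliced like messenger RNA, and many stay in the nucleus. Malat1 and Neat1 are each annotated by GENCODE as 1 merged exon. Meg3, Rian and Mirg lie in a row in the imprinted Dlk1-Dio3 domain, are expressed from the maternal chromosome, and host small nucleolar RNAs (snoRNAs) and microRNAs. Snhg14 is the long paternal transcript of the Prader-Willi and Angelman region that runs antisense to Ube3a, Malat1 sits in nuclear speckles, Neat1 builds paraspeckles, and Miat forms nuclear bodies in neurons. Thyroid hormone acts through nuclear receptors that bind DNA at pairs of the AGGTCA core motif.

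The promoter windows of A230001M10Rik and Meg3 are shown because the first gene had the one large difference between the groups and the second was the most abundant RNA of all. Each runs from 250 bases before to 50 after the gene's RefSeq start (GRCm38.p6, plus strand), at chr3:102262155-102262454 for A230001M10Rik and chr12:109540746-109541045 for Meg3. The Meg3 window is the one at the first of its RefSeq starts. Capitals mark matches to the motifs searched.
A230001M10Rik: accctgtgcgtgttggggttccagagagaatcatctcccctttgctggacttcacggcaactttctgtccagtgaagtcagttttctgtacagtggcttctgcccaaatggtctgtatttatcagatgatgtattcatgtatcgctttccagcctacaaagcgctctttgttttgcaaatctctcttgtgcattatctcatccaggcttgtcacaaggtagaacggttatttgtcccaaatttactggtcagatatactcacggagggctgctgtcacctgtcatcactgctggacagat
Meg3: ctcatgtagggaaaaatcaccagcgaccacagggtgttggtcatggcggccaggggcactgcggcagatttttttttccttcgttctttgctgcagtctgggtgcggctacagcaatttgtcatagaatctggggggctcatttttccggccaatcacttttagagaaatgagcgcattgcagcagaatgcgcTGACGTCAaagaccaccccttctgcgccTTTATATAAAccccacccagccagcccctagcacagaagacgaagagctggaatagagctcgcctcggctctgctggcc

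The motifs were searched on both strands: AGGTCA, its direct repeat spaced by 4 bases (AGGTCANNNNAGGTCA), the cAMP response element TGACGTCA and the TATA box core TATAAA. The A230001M10Rik window held none of them, which says only that these letters are not in this window. The Meg3 window held TGACGTCA from position -57 and TATA letters from position -29 (TTTATA, which overlaps TATAAA from position -25), counted from the RefSeq start. RefSeq has another start inside Meg3, and its window (chr12:109545148-109545447, plus strand) held TGACCT, the reverse complement of AGGTCA, from position -141 of that start. This was the one AGGTCA match in all the windows of the 8 RNAs found in the table, and it is a description, not a shown binding site. Of 32817 RefSeq promoter windows of this length, 16.3% held AGGTCA, 0.0152% its direct repeat, 1.79% TGACGTCA and 13.6% TATAAA. RefSeq windows were found for 8 of the 9 RNAs, Neat1 being the one without.

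The RefSeq table placed 35 mature microRNAs inside the GENCODE gene bodies of the Dlk1-Dio3 RNAs: 3 in Meg3, 6 in Rian and 26 in Mirg. RefSeq starts Mirg later, at 109734981, which leaves some of the 26 outside it. MicroRNAs of the domain outside these bodies, such as Mir329, Mir495 and Mir667 between Rian and Mirg, were not searched. The 35 carry 34 different seeds (bases 2 to 8, in capitals), so these are no family by seed. One from each host and the single pair that shares a seed, both in Mirg, show this.
miR-770-5p: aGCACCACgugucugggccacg
miR-370-3p: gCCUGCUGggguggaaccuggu
miR-453: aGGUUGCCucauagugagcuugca
miR-496a-5p: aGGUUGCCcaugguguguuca
The first lies in Meg3 and the second in Rian. Annotated microRNA and snoRNA genes inside the 9 RNAs, 208 of the snoRNAs within Snhg14, had no counts in any library, so the values below are those of the host genes as counted.

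Library totals ran from 21762810 to 29084071 counts. Hr, Klf9 and Dbp, taken as thyroid hormone response genes, were checked against the treatment label: Hr went from 1.80 ± 0.53 CPM in PTU to 26.6 ± 1.62 in PTU+TH (SD, n = 4 each), and all 3 passed the test. CPM are counts relative to library size after TMM scaling, the trimmed-mean scaling of edgeR. The GABAergic markers were present in every library (6 of 8 genes tested, summed 2366 to 2816 CPM in PTU and 2237 to 2470 in PTU+TH), while Dlx1 and Dlx6 were listed at 0. As the counter and its rules are not given, a listing at 0, here and below, is no measure of a gene's expression. Markers of excitatory neurons summed to 275 to 314 CPM in PTU and 246 to 324 in PTU+TH. Most of this sum was Camk2a, with means of 227 CPM in PTU and 213 in PTU+TH. Slc17a7 came next at 35.2 and 38.5 CPM. Counts of Y-linked genes were found in 6 libraries and not in PTU+TH mice 15 and 16. Replicates of a group differed by more than counting noise in all 12 pairs (chi-square per degree of freedom 8.38 to 72.6).

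Together the 9 RNAs took 3.03% of all counts on average over the 8 libraries. In PTU mice 9, 10, 11 and 12 the share was 2.81%, 3.08%, 3.26% and 3.26%. In PTU+TH mice 13, 14, 15 and 16 it was 3.04%, 3.24%, 2.69% and 2.83%, so the groups overlapped. Meg3 and Snhg11 made up most of it. Meg3 was the gene with the most counts in every library, at 1.45% ± 0.167 of counts in PTU and 1.37% ± 0.0925 in PTU+TH (SD, n = 4 each). At this depth counting error is small: the share of Meg3 in mouse 9 was 1.2395% with a 95% Wilson interval of 1.2351% to 1.2438%, and such intervals cover counting error only. Snhg11, a snoRNA host gene, came next in every library, at 1.23% ± 0.0505 in PTU and 1.13% ± 0.110 in PTU+TH. Malat1 followed far behind at 0.194% ± 0.00549 and 0.211% ± 0.0393, and ranked between 13th and 36th among all genes.

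**Figure D1:**
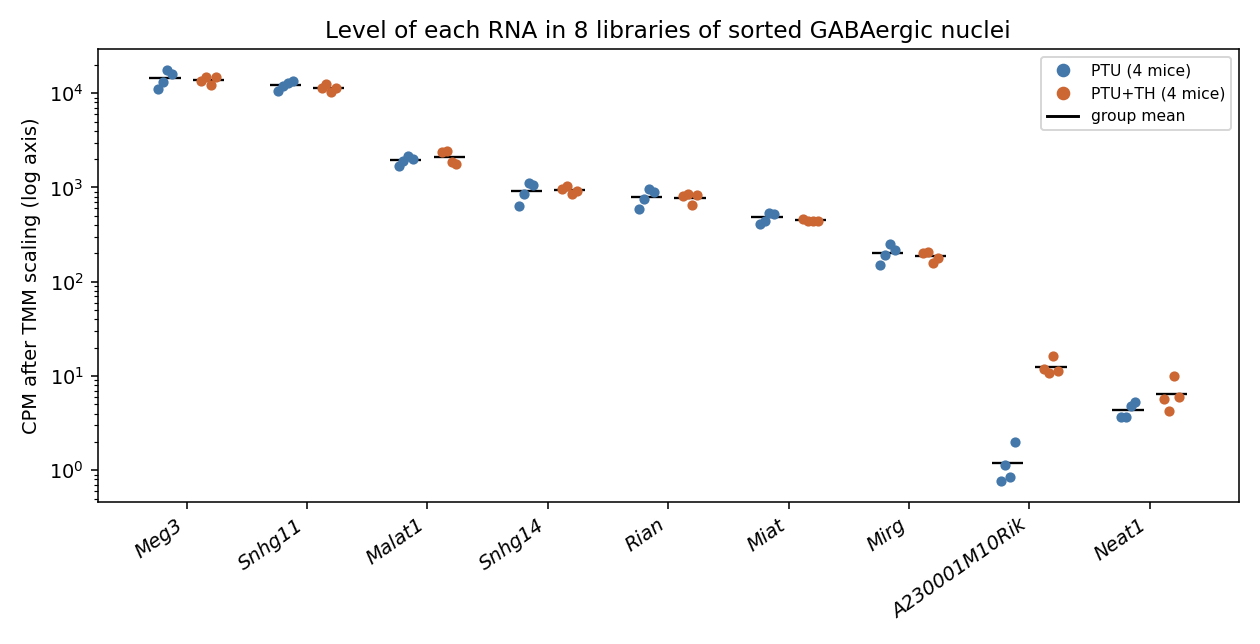
Level of each of the 9 RNAs in CPM after TMM scaling (log axis), 1 point per library, coloured by group, with a black line at the group mean. Meg3 and Snhg11 lie highest in both groups, between 10199 and 17629 CPM, while A230001M10Rik is the one RNA whose groups separate, at 0.77 to 2.01 CPM in PTU and 10.8 to 16.3 CPM in PTU+TH.

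Levels of different genes were compared per kilobase of merged exons (GENCODE M21). Snhg11 was then highest at 1386 ± 134 CPM per kb (SD over 8 libraries), ahead of Meg3 at 783 ± 116 and Malat1 at 290 ± 39.0, and the ranges of these 3 did not overlap. Miat, Rian, Snhg14 and Mirg followed at 49.98 ± 4.93, 43.3 ± 6.71, 35.8 ± 5.92 and 26.7 ± 4.55 CPM per kb. Each of these 4 overlapped its neighbour in that order. A230001M10Rik reached 0.51 ± 0.25 CPM per kb in PTU and 5.46 ± 1.09 in PTU+TH (n = 4 each). By this length Neat1 had the lowest mean, 0.26 ± 0.098 CPM per kb (n = 8), on a single annotated exon of 20.8 kb. Its range overlapped that of A230001M10Rik. How fully the cDNA step captured each RNA was not measured. Whether reads in introns were counted is not stated, and per kilobase of gene body Snhg14 came to 1.40 CPM per kb because its gene spans 668 kb. By gene body A230001M10Rik was lowest, at 0.038 CPM per kb (n = 8), below Neat1 at 0.26.

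Between the groups, 1 of the 9 RNAs passed an adjusted p of 0.05 (edgeR quasi-likelihood test, Benjamini-Hochberg over 17355 genes), against 2.12% of all genes tested (1.49% higher and 0.634% lower in PTU+TH). The one was A230001M10Rik, whose choice is treated as having used this contrast, so nothing is read from the count. The other 8 did not pass, and 7 of them had a 95% interval for the log2 fold change that included 0, Neat1 being the exception.

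In the Dlk1-Dio3 domain none of the 3 RNAs passed. Meg3 (ENSMUSG00000021268, chr12:109541001-109571726, plus strand, GRCm38) measured 11203, 13093, 17629 and 16190 CPM in PTU mice 9, 10, 11 and 12. In PTU+TH mice 13, 14, 15 and 16 it measured 13347, 14757, 12362 and 14728 CPM, all inside the PTU range. The log2 fold change, PTU+TH over PTU, was -0.07 (SE 0.27, 95% interval -0.67 to 0.52, edgeR adjusted p = 0.963). The SE of the fit draws on the spread of other genes too: from the 8 log2 CPM values of Meg3 alone it would be 0.16.

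Rian, the snoRNA host downstream of Meg3 (chr12:109603940-109661716, plus strand), measured 587, 763, 953 and 894 CPM in the PTU mice and 806, 846, 645 and 824 CPM in the PTU+TH mice. Its log2 fold change was -0.03 (SE 0.17, edgeR adjusted p = 0.975). Mirg, the microRNA host at the far end (chr12:109729764-109749460, plus strand), measured 151, 193, 253 and 219 CPM in PTU and 201, 208, 157 and 178 CPM in PTU+TH. The log2 fold change of Mirg was -0.13 (SE 0.15, edgeR adjusted p = 0.81). For all 3 RNAs mouse 9 was the lowest library and mouse 11 the highest, both of the PTU group, so the groups overlapped fully.

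The ratios between the 3 RNAs varied less than their levels. Each library had 5.22 to 6.04 Rian counts and 1.21 to 1.504 Mirg counts per 100 Meg3 counts. Of 11 genes listed for the domain and its surroundings, these 3 included, 8 were tested and 0 passed. Their log2 fold changes ran from -0.17 (Wars) to 0.05, with Wdr25, 513 kb from Meg3, at -0.15. Ppp2r5c, a phosphatase regulatory subunit gene 698 kb beyond Mirg, had a log2 fold change of 0.05. Rtl1, the paternally expressed retrotransposon-like gene between Meg3 and Rian, had one of -0.01. Begain, a neuronal gene upstream of Meg3, had one of -0.06. Dlk1 and Dio3, the 2 genes that name the domain (Dio3 inactivates thyroid hormone), had too few counts to test, with 16 and 8 counts over all 8 libraries. The median log2 fold change of the 8 tested genes was -0.07, beside -0.01 over all 17355 genes.

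Snhg14 (chr7:59307924-59975759, minus strand) measured 640, 846, 1124 and 1065 CPM in PTU mice 9 to 12. It measured 965, 1048, 855 and 925 CPM in PTU+TH mice 13 to 16, between the PTU extremes. A log2 fold change of 0.05 (SE 0.18, edgeR adjusted p = 0.965) was fitted. Ube3a, the ubiquitin ligase gene whose end Snhg14 overlaps on the opposite strand, had one of 0.01 (SE 0.24, edgeR adjusted p = 0.994). Reads of the 2 genes cannot be told apart here where they overlap, and the strand setting of the counting is not stated. Of 13 genes listed for the domain 8 were tested and 0 passed. Gabrg3, a GABA-A receptor subunit gene, was 920 ± 390 CPM in PTU and 1550 ± 226 in PTU+TH (SD, n = 4 each; log2 0.75, edgeR adjusted p = 0.218). Ndn, Magel2, Mkrn3 and Snurf were listed at 0 in all 8 libraries, which is no measure of these genes while the counting rules are not known.

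Malat1 (chr19:5795690-5802672, minus strand) measured 1710, 1894, 2143 and 2006 CPM in the PTU mice and 2364, 2457, 1855 and 1784 CPM in the PTU+TH mice. Mice 13 and 14 lay above all PTU libraries and mice 15 and 16, the 2 without Y-linked counts, below the PTU mean. The log2 fold change was 0.13 (SE 0.18, 95% interval -0.26 to 0.51, edgeR adjusted p = 0.87) and 0.32 when only the libraries with Y-linked counts were used, where it also did not pass. Whether the Y-linked split has a part in this was not tested. Proteins of nuclear speckles and splicing, the compartment of Malat1, had 21 of 22 genes tested and 0 passed, with log2 fold changes from -0.14 to 0.31 and a median of -0.02. The most abundant were Srrm2, a speckle scaffold (-0.08), Srsf5, a splicing factor (0.10), Sf3b1, a spliceosome subunit (-0.12), and Srsf11, another splicing factor (0.02).

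Neat1 (chr19:5824708-5845478, minus strand, a neighbour of Malat1) measured 3.64, 3.65, 4.80 and 5.25 CPM in PTU mice 9 to 12. In PTU+TH mice 13, 14, 15 and 16 it measured 5.69, 4.30, 9.99 and 5.95 CPM, with mouse 15 well above the rest and mouse 14 inside the PTU range. This gave a log2 fold change of 0.58 (SE 0.26, 95% interval 0.03 to 1.13), with an unadjusted p of 0.0414 and an edgeR adjusted p of 0.356. Without mouse 15 it was 0.29. The number of genes at an unadjusted p under 0.05 was 2214, or 12.8% of those tested. Paraspeckle proteins, the partners of Neat1, had 15 of 17 genes tested and 0 passed, with log2 fold changes from -0.16 to 0.15. The most abundant included Ewsr1 (0.04) and Cpsf6 (0.02), which bind RNA, and Smarca4 (-0.03), a chromatin remodeller.

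Mouse 15 also had the highest summed level of non-neuronal markers, though not of each cell type. Of 23 markers of astrocytes, oligodendrocyte lineage, microglia and endothelium 21 were tested, and 15 of the 21 were highest in mouse 15. Gfap of astrocytes and P2ry12 of microglia were listed at 0. The 21 summed to 692 CPM in mouse 15, against 262 to 516 CPM in the PTU mice and 263 to 472 CPM in the other PTU+TH mice. Microglial markers summed to 8.88 to 13.4 CPM in PTU and 12.9 to 26.8 CPM in PTU+TH, and astrocyte markers to 125 to 241 and 127 to 366 CPM. Oligodendrocyte lineage markers summed to 94.2 to 120 CPM in PTU and 89.7 to 192 CPM in PTU+TH. Endothelial markers summed to 32.9 to 148 CPM in PTU and 33.0 to 107 CPM in PTU+TH, with the highest sum in PTU mouse 10. With the non-neuronal sum as a covariate the log2 fold change of Neat1 was 0.45, and with the Y-linked counts as a covariate 0.20. It did not pass in either fit, and the part of these cells in the Neat1 level was not tested further. In bulk libraries fewer cells of a type and less RNA per cell cannot be told apart.

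**Figure D2:**
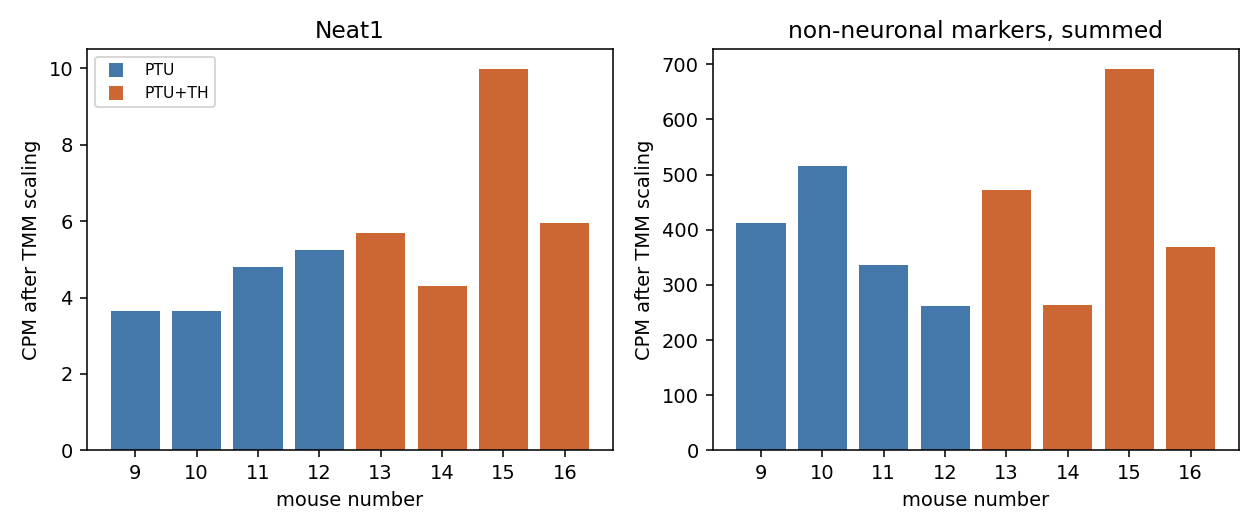
Neat1 (one panel) and the summed markers of non-neuronal cells (the other), in CPM after TMM scaling by mouse number, with bars starting at 0 and coloured by group. Mouse 15 is the highest in both panels, at 9.99 CPM and 692 CPM.

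Miat (chr5:112213228-112229395, minus strand) measured 410, 446, 539 and 529 CPM in the PTU mice and 469, 438, 446 and 438 CPM in the PTU+TH mice. Its log2 fold change was -0.10 (SE 0.12, 95% interval -0.37 to 0.16, edgeR adjusted p = 0.832). Only 24.0% of its exon bases are free of other annotated genes, so its count depends on how reads in overlaps were treated. Snhg11 (chr2:158375638-158386145, plus strand) is typed as protein-coding by GENCODE and as lncRNA by RefSeq. It measured 10680, 11868, 12897 and 13510 CPM in PTU and 11473, 12655, 10199 and 11229 CPM in PTU+TH, with the lowest library in PTU+TH and the highest in PTU. Snhg11 thus had a log2 fold change of -0.10 (SE 0.25, edgeR adjusted p = 0.935), where its own 8 values alone would give an SE of 0.098.

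The spread within the groups depended on the scaling. In CPM, for 6 of the 8 RNAs without A230001M10Rik the coefficient of variation was larger in PTU than in PTU+TH, for example 24.0% against 8.46% for Snhg14 and 20.1% against 8.42% for Meg3. The exceptions were Malat1 (9.45% against 16.3%) and Neat1 (18.8% against 37.8%). By plain share of counts, without the TMM factors, the coefficient was larger in PTU for 3 of the 8: Meg3, Rian and Snhg14. These differences in spread were not tested. Mouse 9 was the lowest PTU library in CPM for all 8 and the lowest of all libraries for 7 of the 8. Its TMM factor was also the highest of the 8 libraries, 1.11 against 0.919 to 1.06 in the others. By plain share of counts, which that factor does not touch, it was the lowest PTU library for 7 of the 8 and the lowest of all libraries for 3 of the 8.

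**Figure D3:**
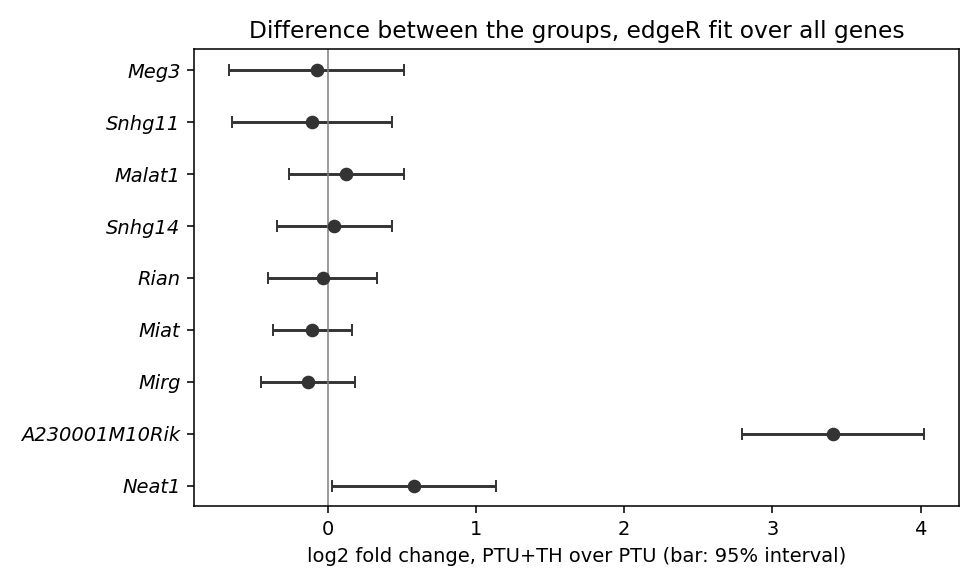
log2 fold change, PTU+TH over PTU, of each of the 9 RNAs with its 95% interval from the edgeR fit (points and bars). The interval of Neat1 runs from 0.03 to 1.13, those of the 7 abundant RNAs include 0, and A230001M10Rik sits at 3.41.

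Several of the RNAs were high and low in the same libraries. Over the 8 libraries Pearson's r of log2 CPM (prior count 2) was 0.90 to 0.95 among Meg3, Rian and Mirg, and 0.87 to 0.95 with Snhg14 added, although Snhg14 lies on another chromosome. Taken as deviations from the group means the r was 0.90 to 0.96 for the same 4. The median over the 28 pairs of the 8 RNAs was 0.74, or 0.81 within groups, and 0.49 when libraries were scaled by their totals only. All these values share the libraries and their scaling, and are a description with no test. Neat1 had lower r with the other 7, from -0.41 to 0.19 over the 8 values, -0.34 to 0.45 within groups and -0.76 to -0.036 with library totals only.

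**Figure D4:**
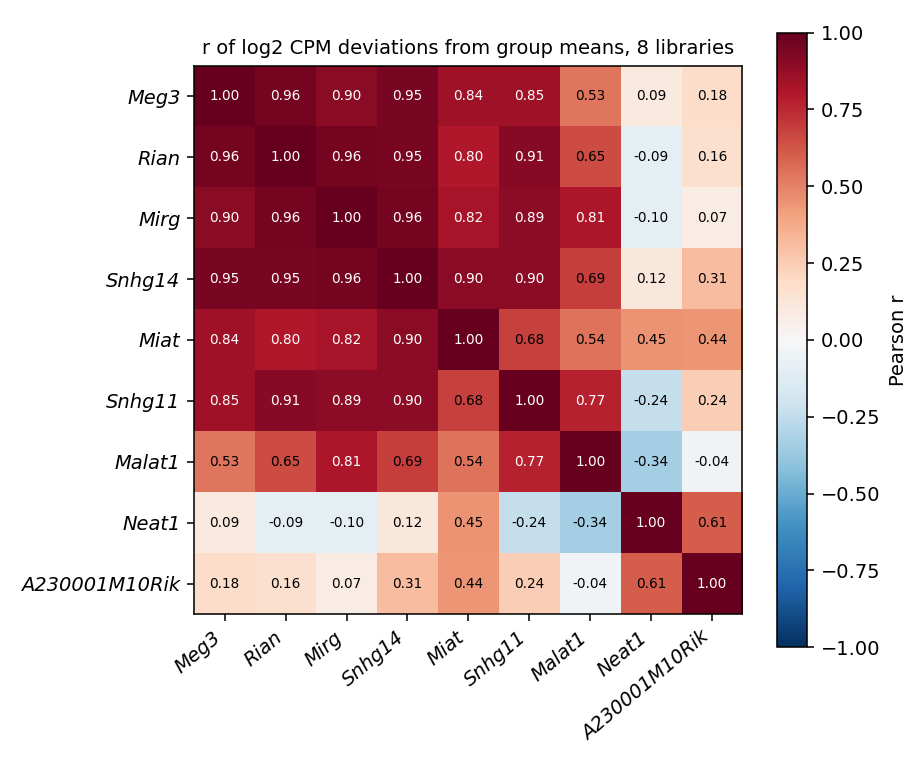
Pearson's r between the 9 RNAs, from deviations of log2 CPM from the group means over 8 libraries, as a colour scale with each r written in its cell. Meg3, Rian, Mirg and Snhg14 form a block at 0.90 to 0.96, and Neat1 and Meg3 are at 0.09.

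The genes most like Meg3, among 15229 genes whose mean reached 1 CPM, included Ptpn23, Iqgap2, Anks1 and Pnn, with r of 0.98 to 0.99 over the 8 libraries. They lie on chromosomes 9, 13, 17 and 12, and the values come from a search of many genes over 8 points, with no test. None of these genes passed the test between the groups.

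A230001M10Rik (ENSMUSG00000105891, chr3:102262405-102445132, plus strand) was the RNA with the large difference. Its counts were 21, 30, 17 and 46 in PTU mice 9, 10, 11 and 12 and 284, 313, 359 and 239 in PTU+TH mice 13, 14, 15 and 16. In CPM these were 0.77, 1.13, 0.84 and 2.01, and then 12.0, 10.8, 16.3 and 11.4. Every PTU+TH library lay above every PTU library, as was so, in either direction, for 8.71% of all genes tested. The group means were 1.19 ± 0.57 and 12.6 ± 2.52 CPM (SD, n = 4 each), a fitted 10.6-fold difference with a 95% interval of 6.92 to 16.3 (log2 3.41, SE 0.29). As the gene is treated as chosen on this contrast, the difference is given as a description with no p-value.

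The values in the other fits are likewise a description. Over 21 alternatives the log2 fold change lay between 3.24 and 3.78, and the fold between 9.46 and 13.7, among them the fits without each library in turn and those with the Y-linked counts or the non-neuronal markers taken into account. Of all 17355 genes 5 had a larger log2 fold change: B930025P03Rik, Gm36169, Ighm, Hr and Ninj2. Among 2132 lncRNA genes tested it was the third by log2 fold change, and the next below had 2.28. Of those lncRNA genes 23 passed (1.08%), 16 of them higher and 7 lower in PTU+TH.

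GENCODE gives A230001M10Rik 3 transcripts, 7 merged exons of 2.31 kb in all, and a body of 183 kb. RefSeq gives the same start and a body of 26.4 kb. None of its exon bases overlap another annotated gene, unlike those of Miat and Snhg14.

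The genes beside A230001M10Rik did not pass the test. On the side of lower coordinates the 3 nearest tested genes were Vangl1, a planar polarity gene (log2 -0.31), Casq2, a calcium-binding protein gene (-0.31), and Slc22a15, a transporter gene (-0.24, edgeR adjusted p = 0.217), whose groups did not overlap. On the side of higher coordinates Gm19202, a pseudogene, and Gm42682, an lncRNA gene, had 0.16 and -0.11.

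Around all 9 RNAs there were 44 different neighbouring genes tested, 1 of which passed. That was Srrd, a gene 108 kb from Miat, which fell by 0.42 on the log2 scale (SE 0.09, edgeR adjusted p = 0.0355), from 62.7 ± 6.29 to 47.0 ± 2.07 CPM (SD, n = 4 each). It lost the call in 10 of 21 alternatives, 6 of them the fits without mouse 10, 12, 13, 14, 15 or 16, with adjusted p up to 0.338, while its log2 fold change stayed between -0.46 and -0.34 over the 21. So 1 of 44 stands beside 2.12% of all genes.

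The 5 genes most like A230001M10Rik over the 8 libraries were Hapln4, a perineuronal net link protein gene, Itga7, an integrin gene, Foxred2, the pseudogene Gm5512 and Arhgef37, with r of 0.98 to 1.00. Such values follow in part from the groups, since all 5 lay higher in every PTU+TH library than in any PTU library. Within the groups the r was 0.93 for Hapln4 and 0.43 to 0.72 for the other 4. Hapln4 measured 3.07 ± 0.64 CPM in PTU and 8.27 ± 0.60 in PTU+TH (SD, n = 4 each; log2 1.43, SE 0.19). These genes come from a search for the profile of A230001M10Rik, so their differences between the groups are a description with no test.

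Other named lncRNAs were compared as a background to the 9: of 36 listed 27 were tested and 0 passed by edgeR, beside 2.12% of all genes and 1.08% of lncRNA genes tested. An unadjusted p under 0.05 was reached by 6 of the 27, beside 12.8% of all genes. Their log2 fold changes ran from -0.32 to 0.79 with a median of 0.08, beside a median of -0.02 over all lncRNA genes tested. The most abundant were Sox2ot, which overlaps Sox2 (-0.13), Firre, an X-linked nuclear organizer (-0.25), Mir124a-1hg, a microRNA host (0.11), and Dlx6os1, the antisense RNA of Dlx6 and an inhibitory neuron marker (-0.30).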

How the data were processed

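Nuclei were sorted, RNA was extracted with RNeasy Micro, and cDNA (SMART-Seq v4) and Nextera XT libraries were sequenced single-end on a NextSeq500, per the labels' protocols. The authors deposited raw counts per gene symbol for each library. Bowtie2 2.5.3 and mm10 (GRCm38) are named in the submitters' processing notes; the counter, annotation, strand setting and treatment of introns are not given in the sources used here. All 55341 symbols matched GENCODE M21. The 9 RNAs and the gene lists were chosen with earlier results of these data known. Genes were named by rule: the 9, the 3 nearest tested genes on each side, the 5 most correlated with Meg3 and A230001M10Rik, and, where no gene of a list passed, its 4 most abundant; a few genes that this rule names are not reported here.

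The test was that of edgeR 4.0.16 under R 4.3.3 (filterByExpr, TMM, robust quasi-likelihood, group only, 4 against 4) with Benjamini-Hochberg adjustment over 17355 genes and a threshold of 0.05, and the script was tested on simulated data. Alternatives covered scaling, filters, DESeq2 1.42.0, limma voom, thinning, marker and Y-linked covariates, and leaving out each library.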

Additional observations from a re-analysis of the deposited data

Results flagged for a closer look

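One ratio stood apart within its group. PTU+TH mouse 16 had 21.6 Mirg counts per 100 Rian counts, against 24.4 to 24.9 in the other 3 PTU+TH mice, and its distance to the nearest of them was 0.846 of the range of the group. It was the only one of 42 sets of 4 values screened this way to pass Dixon's limit at the 95% level, where chance alone would give about 2.1.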

How the results depend on the processing

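The one of the 9 RNAs past the threshold in each of the 21 alternatives was A230001M10Rik, whose choice is treated as having used this contrast, so this supports nothing about it. The number of genes passing was 368 (258 higher, 110 lower in PTU+TH), 721 with DESeq2 (439 and 282), 129 with Y-linked counts as a covariate (106 and 23), 58 when mice 15 and 16 were left out (52 and 6), and 182 to 499 without 1 library, lowest without PTU+TH mouse 15 and highest without PTU mouse 9. The cause of these shifts was not tested, except that fewer samples enter where libraries are left out. Of the 8 other RNAs none passed in any alternative. Their signs near 0 turned in some: Rian to 0.047 with Y-linked counts as a covariate, 0.049 without mice 15 and 16, 0.026 with non-neuronal markers, and -0.15 to 0.061 without 1 library; Mirg to 0.0020 and 0.0032 in the first 2 of these; Meg3 from -0.18 to 0.032 and Snhg14 from -0.087 to 0.16 without 1 library. The 9 RNAs took 52.0% of lncRNA counts in place of 3.03% of all counts, and 2.99% to 3.07% without 1 library. No paired analysis was possible because no mouse number occurs in both groups. Depth limits Neat1 and A230001M10Rik in PTU most, at 97 to 120 and 17 to 46 counts.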

Other observations

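Of the 2 lncRNA genes with a larger log2 fold change than A230001M10Rik, chosen after their values were seen, B930025P03Rik was counted 2, 2, 19 and 1 times for PTU mice 9 to 12, against 113, 132, 140 and 100 times for PTU+TH mice 13 to 16. Its log2 fold change was 4.27 (SE 0.65, edgeR adjusted p = 0.0058), and mouse 11 stood above the other PTU mice. The counts of Gm36169 were 0, 0, 3 and 0 for the PTU mice against 10, 15, 12 and 18 for the PTU+TH mice, too few for a firm fold.

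Among the other named lncRNAs 3 were listed at 0 in all 8 libraries: Xist, Kcnq1ot1 and Peg13, each of which overlaps another gene. Tsix, the antisense partner of Xist, had 289 counts in all. How the counter treated such overlaps is not given in the sources used here, so a listing at 0 is no measure of these RNAs.

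Pvt1 and Airn, also chosen after their values were seen, were higher in PTU+TH without passing. Pvt1 measured 175 ± 41.3 and 252 ± 28.7 CPM (SD, n = 4 each; log2 0.53, edgeR adjusted p = 0.122), and its groups did not overlap. Airn, the imprinted antisense RNA of Igf2r, measured 15.1 ± 4.39 and 26.0 ± 7.05 CPM (log2 0.79, edgeR adjusted p = 0.109), with overlapping groups.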
